A study of Mus musculus with 12 samples.

Results

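Mouse genes named Zfp and a number encode zinc finger proteins, most of them DNA-binding factors, and 188 of them were expressed in splenic CD4+ T cells. The members were all protein-coding genes with such a name, without Zfp36 (an mRNA decay factor of another finger type), whose mean level was at least 5 CPM (a gene's counts scaled to a common library size) over 11 of the 12 libraries. They are 188 of 364 such genes, of 21647 protein-coding genes and of 45321 genes in all. Just inside the threshold stood Zfp560, Zfp395 and Zfp182 at a mean of 5.26, 5.37 and 5.47 CPM, and just outside it Zfp930, Zfp763 and Zfp995 at 4.93, 4.93 and 4.87 CPM. The 4 groups of 3 libraries each were total CD4+ T cells of C57BL/6 mice, purified untouched (by removal of other cells). Vehicle unstimulated cells (ethanol_US) had ethanol for 1 h, and CsA unstimulated cells (CsA_US) had 1 µM cyclosporin A for 1 h. Vehicle stimulated (ethanol_PI) and CsA stimulated cells (CsA_PI) then also received 10 nM phorbol 12-myristate 13-acetate (PMA) and 1 µM ionomycin for 2 h. No genotype was altered and all groups share the strain and the 1 h pretreatment. PMA and ionomycin mimic antigen receptor signals through protein kinase C and calcium, and cyclosporin A (CsA) blocks calcineurin, the phosphatase that calcium activates.

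In a C2H2 zinc finger, a pair of cysteines and a pair of histidines hold a zinc ion, and arrays of such fingers read DNA base by base. Many of these proteins also carry a KRAB box, a short N-terminal module that recruits the corepressor Trim28 and, through it, Setdb1 and heterochromatin proteins; KRAB zinc finger proteins are best known for silencing retroviruses and transposable elements and for keeping imprints. Others lack the box and act as activators, as enzymes of the ubiquitin and SUMO pathways, or in ribosome assembly and RNA processing.

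The box and the fingers were counted by pattern in the protein each gene's longest annotated coding sequence encodes. A finger was C, 2 to 4 residues, C, 12 residues, H, 3 to 5 residues, H, and the KRAB pattern was Y, any residue, D, E or N, V or T, M, any residue, E, N or T. By this pattern 81 members carried a KRAB box and 107 did not, against 228 of 21647 protein-coding genes (1.05%), of which 207 also had at least 3 fingers. The pattern is strict: it misses Zfp445, a known KRAB protein. A second, shorter pattern finds Zfp445 but is less specific, since it also takes in Zfp207 and misses Zfp12 and Zfp110; 95 members held one pattern or the other. The members held a median of 10 fingers (0 to 36), with a median of 12 among those with the KRAB pattern and 8 among the others. The coding stretches below are those of members that the results turn on, 5′ to 3′ on the coding strand, with the 8 codons of the KRAB pattern in capitals and 4 codons on either side.
Zfp386: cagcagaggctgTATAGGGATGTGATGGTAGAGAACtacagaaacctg
Zfp945: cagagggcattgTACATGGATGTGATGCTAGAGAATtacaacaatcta
Zfp69: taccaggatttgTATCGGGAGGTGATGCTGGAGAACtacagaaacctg
Zfp85: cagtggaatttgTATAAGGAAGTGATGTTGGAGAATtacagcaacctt
Zfp53: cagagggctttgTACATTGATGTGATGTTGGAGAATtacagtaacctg
Zfp599: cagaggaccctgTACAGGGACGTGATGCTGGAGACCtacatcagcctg
Zfp566: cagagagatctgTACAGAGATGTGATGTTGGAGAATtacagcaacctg
Zfp809: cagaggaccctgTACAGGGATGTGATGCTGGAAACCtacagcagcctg
Between any 2 of 10 such members compared, 16 (Zfp85 and Zfp101) to 22 (Zfp599 and Zfp809) of the 24 capital bases were identical. The first fingers of 4 members follow, with the codons of the cysteines and histidines in capitals.
Zfp260: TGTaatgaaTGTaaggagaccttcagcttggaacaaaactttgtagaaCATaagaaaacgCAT
Zfp827: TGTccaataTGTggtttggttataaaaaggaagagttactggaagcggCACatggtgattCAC
Zfp593: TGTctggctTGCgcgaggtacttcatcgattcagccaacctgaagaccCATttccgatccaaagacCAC
Zfp281: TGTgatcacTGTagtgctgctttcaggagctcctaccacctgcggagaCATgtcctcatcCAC
The first 2 of these belong to arrays of 12 (Zfp260) and 9 fingers (Zfp827); Zfp593 holds a single finger and Zfp281 holds 3.

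Library totals ran from 10523816 to 18468044 estimated counts, and where no read was counted the level could still be as high as 0.162 to 0.285 CPM, depending on the library. These limits cover counting error only, since reads carried no molecular identifiers. Whether replicates came from separate animals is not in the labels, and the p-values reflect only how these libraries vary, possibly for technical reasons. All 8 CD4 T cell markers were present, at a summed 3396 to 4625 CPM in every library. The library labelled CsA_PI 2 stood apart from CsA_PI 1 and 3 in its TMM scaling factor, 1.14 against 0.871 and 0.910. This factor was 1.12 to 1.21 in the unstimulated libraries and 0.734 to 0.792 in the vehicle stimulated ones. The mean log2 level of the 81 members with the KRAB pattern set it less apart. It was 4.17 in CsA_PI 2, against 3.80 and 4.03 in CsA_PI 1 and 3 and 3.40 to 3.48 in the vehicle stimulated libraries. The vehicle unstimulated libraries stood at 4.11 to 4.18 and the CsA unstimulated ones at 4.07, 3.78 and 3.96. CsA_PI 2 was thus within the former range and above the latter, while CsA_PI 1 and 3 lay inside the latter. CsA_PI 2 was kept under its label, and results that rest on it are given again from the other 11 libraries. Of the markers of other cells, those of B cells and of myeloid and dendritic cells were high in the libraries numbered 2. All 7 B cell markers were detected, and their sum was high in each library numbered 2: 1092 CPM beside 133 and 178 in the vehicle unstimulated group, 1077 beside 135 and 189 in the CsA unstimulated group, 369 beside 57.6 and 82.2 in the vehicle stimulated group, and 1128 beside 72.7 and 101 in the CsA stimulated group. The summed myeloid and dendritic markers stood at 202, 188, 146 and 213 CPM in the libraries numbered 2 of these groups and at 29.2 to 56.8 CPM in the other 8. The B cell, the myeloid and the erythroid and platelet sums were each lower in the vehicle stimulated than in the vehicle unstimulated group number for number. The CD8 and NK sums were each higher, but their markers did not move together. The group mean of Prf1 went from 10.9 to 47.3 CPM and that of Ncr1 from 2.35 to 3.27 CPM. The means of Cd8a, Cd8b1, Klrb1c and Klrd1 were lower in the vehicle stimulated group. The part of all these cells in the results below was not tested. In bulk RNA, fewer cells of a type and less RNA per cell cannot be told apart.

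Levels between genes were compared as TPM, which corrects for transcript length. Mean TPM over the 11 libraries ran from 1.32 to 151.7 with a median of 9.56; the median was 8.89 among members with the KRAB pattern and 10.2 among those without. Zfp207, a microtubule-binding protein that loads Bub3 onto kinetochores, was the most abundant at 151.7 TPM. Zfp53, with a KRAB box and 15 fingers, followed at 85.6 and Zfp263 at 71.8 TPM. The lowest were Zfp609, which works with the cohesin loader Nipbl, at 1.32, Zfp831 at 1.33 and Zfp318, a B cell factor needed for IgD expression, at 1.57 TPM. Together the members took 0.339% to 0.352% of all TPM in the vehicle unstimulated libraries and 0.224% to 0.254% in the vehicle stimulated ones, and these 2 ranges did not overlap. In CsA_PI 1 and 3 the share was 0.247% and 0.310%, and in CsA_PI 2 it was 0.358%. The CsA unstimulated libraries had 0.336%, 0.262% and 0.295%, all below the vehicle unstimulated ones. The summed CPM of the members did overlap between the vehicle groups, at 5414 to 5568 unstimulated and 5516 to 5652 stimulated.

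Stimulation of vehicle-treated cells lowered more members than it raised: 65 fell and 28 rose (edgeR, adjusted p under 0.05). Of all 14398 genes tested, 39.8% were called, 20.1% higher and 19.7% lower; among the 9469 with a mean of at least 5 CPM these shares were 26.7% and 25.0%, beside 14.9% and 34.6% of the members. The median log2 fold change was −0.41 over the members and −0.02 over all genes. Of the 81 members with the KRAB pattern, 39 fell and 4 rose (median −0.67). Of the 107 without it, 26 fell and 24 rose (median −0.15). From the 11 libraries 79 members fell and 31 rose (22.9% and 20.8% of all genes tested), with 45 and 6 among those with the pattern. The members were chosen by their mean level in these same libraries, and 54 of them were under 5 CPM in their lowest group; of the 134 that were at or above it in every group, 34 fell (25.4%) and 22 rose (16.4%), beside 21.4% and 29.3% of the 7971 genes tested that meet the same rule. The share of falls was thus near that of all such genes, and the members' share of rises was lower. Of the 50 among the 134 with the KRAB pattern 18 fell and 1 rose, and of the 84 without it 16 fell and 21 rose. Scaling to library totals, which moved the median of all genes to −0.63, gave 113 falls and 7 rises.

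**Figure D1:**
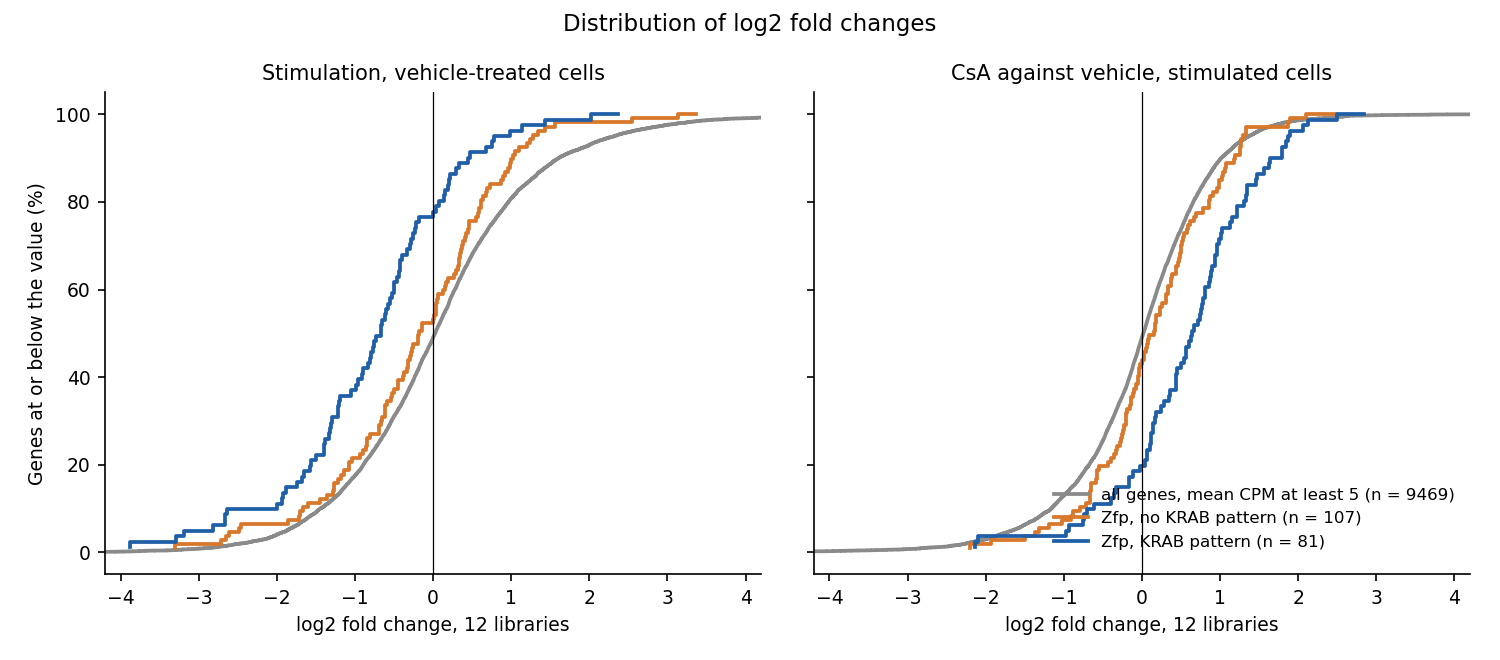
Cumulative share of genes (vertical axis, %) against their log2 fold change (horizontal axis) for stimulation in vehicle-treated cells (left) and for CsA against vehicle in stimulated cells (right), 12 libraries. The curve of the 81 members with the KRAB pattern (blue; medians −0.67 and 0.67) lies left of all genes averaging at least 5 CPM (grey) for stimulation and right of them for CsA, while the 107 without the pattern (orange; medians −0.15 and 0.16) lie between them over most of the range.

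The deepest fall was that of Zfp386, a KRAB protein with 9 fingers. It stood at 58.9, 49.4 and 67.1 CPM in the vehicle unstimulated libraries and at 5.6, 2.23 and 4.19 CPM after stimulation, 14.7-fold lower, a log2 fold change of −3.88 ± 0.45 (SE, adjusted p = 4.78e-05). Every stimulated library lay far below every unstimulated one. Zfp945, with a KRAB box and 18 fingers, went from 12.8, 8.2 and 8.79 to 0.715, 0.97 and 1.35 CPM, by −3.29 ± 0.46 (SE, adjusted p = 0.000169). Zfp69, a KRAB gene known as a diabetes susceptibility factor in obese mice, went from 18.1, 11.3 and 16.3 to 1.67, 1.36 and 1.97 CPM, by −3.19 ± 0.37 (SE, adjusted p = 4.38e-05). Neither pair of groups overlapped, and the stimulated values rest on few counts. Zfp85 and Zfp90, KRAB genes as well, had log2 fold changes of −2.67 ± 0.43 and −2.82 ± 0.38 (adjusted p = 0.000478 and 0.000111), but only 55.1% and 28.7% of their 31-base stretches occur in no other gene, so their counts are partly shared with Zfp273 and with the overlapping Gm26786. For Zfp101 the log2 fold change was −2.67 ± 0.58 (SE, adjusted p = 0.00319).

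Large falls also occurred among members without the KRAB pattern, none of them as deep as that of Zfp386. Zfp260, an array of 12 fingers known as a regulator of heart muscle genes, went from 80.3, 83.4 and 81.2 to 9.65, 16.7 and 17.5 CPM, by −2.48 ± 0.36 (SE, adjusted p = 0.000209); its 3 unstimulated values were close together and the stimulated ones all far lower. Zfp652, which represses transcription with Cbfa2t3, went from 53.4, 35 and 60.3 to 8.1, 3.88 and 10.8 CPM, by −2.71 ± 0.56 (SE, adjusted p = 0.00279). Zfp395 went from 9.14, 8.37 and 4.08 to 0.238, 1.36 and 0.493 CPM, by −3.31 ± 0.79 (SE, adjusted p = 0.0056), and the lowest of these values is near the level of 3 counts. Zfp949 changed by −2.62 ± 0.51 (adjusted p = 0.00162) and Zfp740 by −1.86 ± 0.32 (adjusted p = 0.000702).

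The largest rise was that of Zfp827, a zinc finger protein that brings the NuRD remodelling complex to telomeres. It went from 3.72, 2.18 and 1.75 to 20.6, 30.9 and 27.6 CPM, 10.3-fold higher, by 3.36 ± 0.48 (SE, adjusted p = 0.000196). Zfp593, whose yeast relative carries the large ribosomal subunit out of the nucleus, went from 14, 17.6 and 7.39 to 126, 105 and 112 CPM, by 3.14 ± 0.43 (SE, adjusted p = 0.000172). The groups of both genes stood well apart, although 71.5% of the 31-base stretches of Zfp593 also occur in E130218I03Rik, so these counts cannot be assigned with certainty. Zfp451, a SUMO ligase, went from 49.8, 44.4 and 39.4 to 123, 131 and 139.8 CPM, by 1.56 ± 0.18 (SE, adjusted p = 4.6e-05), and Zfp655 rose by 1.43 ± 0.23 (SE, adjusted p = 0.000401). Zfp703, a factor of the NocA family without a classical finger array, rose by 1.35 ± 0.35 (SE, adjusted p = 0.00831).

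Rises among members with the KRAB pattern were 4. Zfp599, with 10 fingers, went from 2.71, 3.83 and 2.97 to 20.9, 15.7 and 12.6 CPM, by 2.37 ± 0.34 (SE, adjusted p = 0.000187). Zfp568, which silences a placental Igf2 transcript in the embryo, went from 5.58, 11.4 and 5.59 to 17.6, 29.8 and 13.8 CPM, by 1.44 ± 0.35 (SE, adjusted p = 0.00583), and Zfp566 rose by 1.14 ± 0.31 (SE, adjusted p = 0.0119). Zfp990 rose by 2.03 ± 0.72 (SE, adjusted p = 0.0426), with 50.9% of its 31-base stretches in no other gene. Each stimulated value of these 4 genes lay above each unstimulated one. The call of Zfp566 was lost without ethanol_US 1 (edgeR, adjusted p = 0.0685), and that of Zfp990 without any 1 of 9 libraries, all but ethanol_US 1, CsA_PI 1 and CsA_PI 2 (adjusted p = 0.0538 to 0.127).

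Of 29 members listed for a known role, 9 rose and 4 fell, beside 26.7% rising and 25.0% falling of all genes averaging at least 5 CPM. Their rises were near that share and their falls under it. Those that rose included Zfp622, which helps mature the large ribosomal subunit, by 0.98 ± 0.18 (SE, adjusted p = 0.00103), and Zfp598, the ubiquitin ligase that senses collided ribosomes, by 0.90 ± 0.26 (SE, adjusted p = 0.0164). Zfp281, a repressor studied in embryonic stem cells, rose by 1.02 ± 0.38 (SE, adjusted p = 0.0478); Zfp106, an RNA-binding protein, by 0.96 ± 0.20 (SE, adjusted p = 0.00262); and Zfp131, a factor with a BTB domain, by 0.91 ± 0.18 (SE, adjusted p = 0.00159). Zfp292 fell from 99.2, 75 and 101 to 32.4, 45.7 and 40.5 CPM, by −1.22 ± 0.19 (SE, adjusted p = 0.000375), and Zfp410, a factor that activates Chd4, changed by −0.45 ± 0.16 (SE, adjusted p = 0.0394). Zfp207, the most abundant member, stood at 266, 287 and 269 and 229.8, 301 and 214 CPM, overlapping groups, with a log2 difference of −0.14 ± 0.21 (SE, adjusted p = 0.635). Zfp335, a nuclear factor that naive T cells need, differed by 0.64 ± 0.30 (SE, adjusted p = 0.107), and the retrovirus silencer Zfp809 by 0.15 ± 0.30 (SE, adjusted p = 0.724). The call of Zfp281 was lost without any 1 of 10 libraries, all but CsA_PI 2 and 3 (adjusted p = 0.051 to 0.150), that of Zfp598 without ethanol_US 1 or 3 or ethanol_PI 3 (0.051 to 0.0649), and that of Zfp410 without ethanol_US 2 or 3 or any vehicle stimulated library (0.0595 to 0.107). Of the 14 rises given by name, those of Zfp106, Zfp131, Zfp281, Zfp566, Zfp568, Zfp598, Zfp622, Zfp703 and Zfp990 were not called with library totals (edgeR, adjusted p = 0.051 to 0.372).

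**Figure D2:**
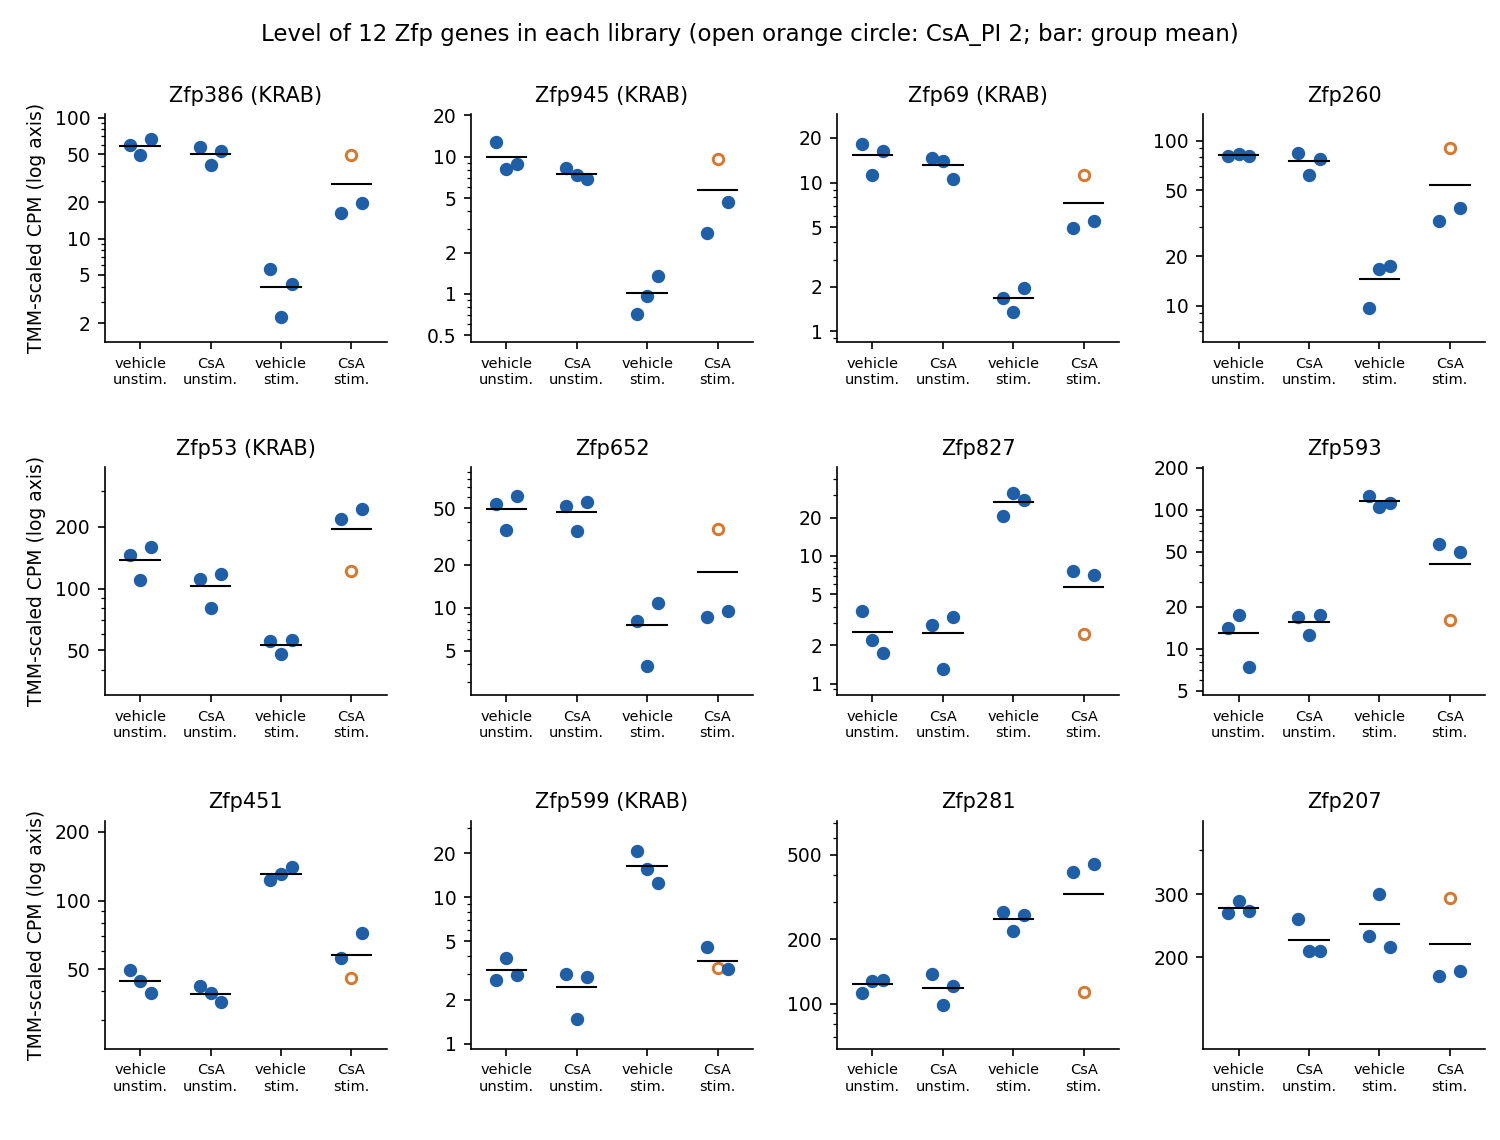
TMM-scaled CPM (log axis) of 12 members in each of the 12 libraries, by group; points are libraries, bars are group means and the open orange circle is CsA_PI 2. Zfp386, Zfp945, Zfp69 and Zfp260 are low in the 3 vehicle stimulated libraries and higher in all 3 CsA stimulated ones, Zfp652 stays low in CsA_PI 1 and 3, Zfp827, Zfp593, Zfp451 and Zfp599 are high in the vehicle stimulated libraries, and Zfp53 and Zfp281 are highest in CsA_PI 1 and 3.

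In stimulated cells, CsA against vehicle moved the members the other way: 56 were higher with CsA and 17 lower, a median log2 difference of 0.37 over the members and 0.06 over all genes. Of all genes tested 23.0% were called, 10.3% higher and 12.7% lower, and of the 9469 at 5 CPM or more 13.6% and 17.9%, beside 29.8% and 9.04% of the members. Among members with the KRAB pattern 35 of 81 were higher and 2 lower (median 0.67), and among the others 21 of 107 were higher and 15 lower (median 0.16). This comparison shares the vehicle stimulated libraries with the one before, so the 2 sets of values are not independent. Without CsA_PI 2 the counts were 48 higher and 17 lower (10.4% and 12.1% of all genes tested), 30 and 3 of them with the KRAB pattern, and without ethanol_PI 1 or ethanol_PI 3 the calls in both directions numbered 40 and 45. Of the 134 members at or above 5 CPM in every group 29 were higher and 13 lower with CsA, beside 11.9% and 19.7% of all genes under the same rule. Scaling to library totals, which moved the median of all genes to 0.40, gave 79 higher and 9 lower.

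Zfp386 stood at 16.3 and 19.8 CPM in CsA_PI 1 and 3 and at 49.5 in CsA_PI 2, against 5.6, 2.23 and 4.19 with vehicle. All CsA values lay above all vehicle values, by 2.84 ± 0.44 (SE, adjusted p = 0.000646) on the log2 scale, or 2.22 ± 0.30 (SE, adjusted p = 0.000163) without CsA_PI 2. Zfp945 stood at 2.78 and 4.7 and, in CsA_PI 2, 9.69 CPM, higher by 1.91 ± 0.37 (SE, adjusted p = 0.00224) in the 11 libraries. Zfp69 stood at 5 and 5.49 and, in CsA_PI 2, 11.3 CPM, higher by 1.69 ± 0.30 (SE, adjusted p = 0.00111) in the 11 libraries. Zfp260 stood at 32.8 and 39.2 and, in CsA_PI 2, 90.6 CPM, higher by 1.33 ± 0.23 (SE, adjusted p = 0.00108) in the 11 libraries. In CsA_PI 1 and 3 each of these 4 genes lay between the vehicle stimulated and the unstimulated values, while in CsA_PI 2 each lay within or above the range of the CsA unstimulated libraries. Zfp292 was higher by 0.87 ± 0.19 (SE, adjusted p = 0.00574) and Zfp410 by 0.50 ± 0.16 (SE, adjusted p = 0.0393). The latter call was lost with the replicate block (adjusted p = 0.0501) and without CsA_PI 3 or any vehicle stimulated library (0.0915 to 0.144).

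Zfp53 differed from these. It stood at 147, 109.6 and 159 CPM in the vehicle unstimulated libraries, 55.4, 48.1 and 55.9 in the vehicle stimulated, and 218 and 244 in CsA_PI 1 and 3, above every unstimulated value; CsA_PI 2 had 122. The difference between CsA and vehicle was 1.87 ± 0.26 (SE, adjusted p = 0.000257), and 2.16 ± 0.20 (SE, adjusted p = 7.97e-06) without CsA_PI 2. Zfp143, a factor that binds many promoters and chromatin loop anchors, stood at 29.9, 30.8 and 27.2 CPM with vehicle and at 55, 41.9 and 76.8 CPM with CsA, higher by 0.98 ± 0.25 (SE, adjusted p = 0.0126). Its call was lost without ethanol_PI 3 or CsA_PI 3 (adjusted p = 0.0538 and 0.0532).

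Lower with CsA were Zfp827, at 7.61 and 7.15 CPM in CsA_PI 1 and 3 and 2.46 in CsA_PI 2 against 20.6, 30.9 and 27.6 with vehicle, by −2.20 ± 0.46 (SE, adjusted p = 0.00438). Zfp599 stood at 4.6, 3.28 and 3.23 CPM with CsA, a difference of −2.14 ± 0.34 (SE, adjusted p = 0.000695), and Zfp566 at 5.23, 9.49 and 3.92 CPM, a difference of −2.10 ± 0.33 (SE, adjusted p = 0.000641). These are the 2 members with the KRAB pattern that were lower. Zfp654 differed by −1.37 ± 0.25 (SE, adjusted p = 0.00163), Zfp131 by −1.02 ± 0.18 (SE, adjusted p = 0.00138), Zfp451 by −1.18 ± 0.18 (SE, adjusted p = 0.000602) and Zfp622 by −0.71 ± 0.18 (SE, adjusted p = 0.0123). Zfp593 stood at 56.2 and 49.4 CPM in CsA_PI 1 and 3 and at 16 in CsA_PI 2, a difference of −1.08 ± 0.29 (SE, adjusted p = 0.0187) in the 11 libraries. Leaving out ethanol_PI 1 ended the calls of Zfp593 and Zfp622 (adjusted p = 0.0608 and 0.0549), and library totals that of Zfp622 (0.0577).

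Some members that moved with stimulation were not called for CsA. Zfp652 stood at 8.64 and 9.51 CPM in CsA_PI 1 and 3, inside the vehicle stimulated range, and the difference without CsA_PI 2 was 0.30 ± 0.38 (SE, adjusted p = 0.639). With CsA_PI 2, at 35.6 CPM, it was 1.25 ± 0.54 (SE, adjusted p = 0.126). Zfp101 differed by 0.62 ± 0.41 (SE, adjusted p = 0.324) and Zfp740 by 0.47 ± 0.24 (SE, adjusted p = 0.198) in the 11 libraries. Zfp395 was called with 12 libraries, 2.48 ± 0.78 (SE, adjusted p = 0.038), and not with 11, 1.33 ± 0.65 (SE, adjusted p = 0.177).

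**Figure D3:**
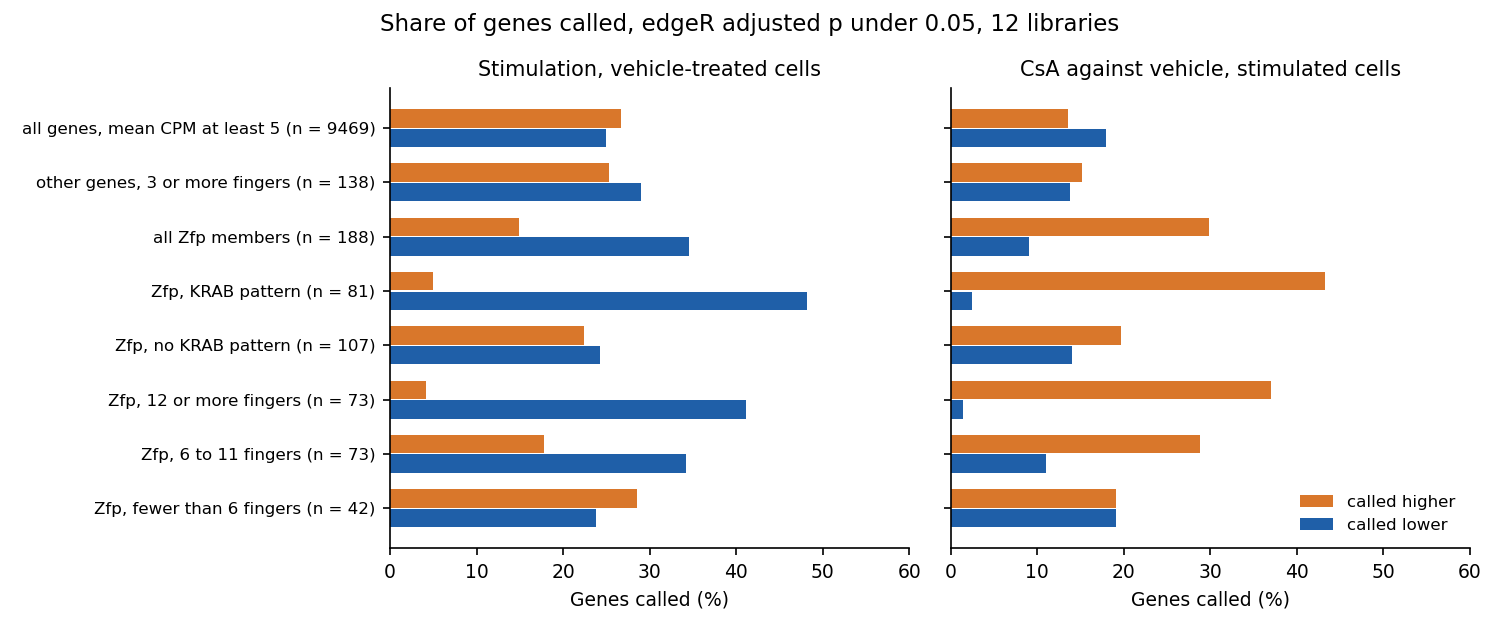
Percent of genes called higher (orange) and lower (blue) for stimulation in vehicle-treated cells (left) and for CsA against vehicle in stimulated cells (right), for lists of genes named with their size, 12 libraries. Among members with 12 or more fingers 41.1% fell and 4.11% rose with stimulation, among those with fewer than 6 fingers 23.8% fell and 28.6% rose, and among all genes averaging at least 5 CPM 25.0% fell and 26.7% rose.

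Grouped by finger number, 3 of 73 members with 12 or more fingers rose with stimulation and 30 fell; of 73 with 6 to 11, 13 rose and 25 fell; and of 42 with fewer than 6, 12 rose and 10 fell. For CsA in stimulated cells the long arrays had 27 higher and 1 lower, the middle class 21 and 8, and the short class 8 and 8. Over all genes averaging at least 5 CPM, 26.7% rose and 25.0% fell with stimulation, and 13.6% were higher and 17.9% lower with CsA. The classes were not counted again among the 134 members at or above 5 CPM in every group. Finger number and the KRAB pattern go together in these genes, and their parts were not separated.

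Stimulation of CsA-treated cells was compared with CsA alone. With all 12 libraries 8 members rose and 1 fell, against 5.28% of all genes called, 3.9% higher and 1.38% lower, or 5.54% and 1.92% of those with a mean of at least 5 CPM. Leaving out CsA_PI 2 gave 30 rises and 26 falls (median −0.07), against 14.1% and 14.6% of all 15057 genes then tested, or 19.7% and 20.3% of those with a mean of at least 5 CPM. Leaving out ethanol_US 2 gave 6 calls and leaving out any 1 of the other 10 libraries gave none, so the calls from 12 libraries do not hold against the loss of a library. Zfp52, a KRAB gene, rose most of the 8, from 40.6, 43.8 and 51.3 CPM to 167 and 219 in CsA_PI 1 and 3 and 55.1 in CsA_PI 2, by 1.70 ± 0.36 (SE, adjusted p = 0.0395), or 2.06 ± 0.16 (SE, adjusted p = 2.72e-06) without the last. In vehicle it went from 46.8, 58 and 56.9 to 94.9, 91.6 and 90.5 CPM, 0.78 ± 0.36 (SE, adjusted p = 0.105) with 12 libraries and 0.72 ± 0.15 (SE, adjusted p = 0.00148) with 11. Zfp281 reached 417 and 450.2 CPM in CsA_PI 1 and 3 and 114 in CsA_PI 2, from 138, 98.3 and 120.5, a rise of 1.84 ± 0.17 (SE, adjusted p = 8.39e-06) in the 11 libraries. Zfp740 was the 1 fall, −1.30 ± 0.31 (SE, adjusted p = 0.0431). Zfp719, Zfp507, Zfp748, Zfp384, Zfp266 and Zfp110 had log2 fold changes of 1.15 ± 0.29, 1.15 ± 0.31, 0.99 ± 0.21, 0.86 ± 0.23, 0.84 ± 0.21 and 0.63 ± 0.16, with adjusted p between 0.0395 and 0.0496.

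The vehicle and the CsA pairs of groups share no library, so their calls can be set against each other. In the 11 libraries 24 members fell in both, 24 of the 79 that fell in vehicle and of the 26 that fell with CsA; 13 rose in both, of 31 and 30. As shares of the calls in vehicle these are 30.4% of the falls and 41.9% of the rises, beside 52.1% and 53.1% over all genes at 5 CPM or more. As shares of the calls with CsA they are 92.3% of the falls and 43.3% of the rises, beside 76.6% and 76.3%. Zfp386, Zfp945, Zfp69, Zfp260, Zfp652, Zfp101 and Zfp740 were among the 24. Zfp652 changed by −2.77 ± 0.34 in vehicle and by −2.41 ± 0.39 with CsA, and Zfp386 by −3.94 ± 0.29 and −1.51 ± 0.29. A fall in vehicle and a rise with CsA was called for 6 members, all with the KRAB pattern: Zfp53, Zfp54, Zfp110, Zfp266, Zfp429 and Zfp456, of which Zfp54, Zfp429 and Zfp456 were named after their values were seen. These are 7.59% of the 79 falls, beside 2.05% (58 of 2827) over all genes at that level, and no test of the difference was made. Zfp53 changed by −1.44 ± 0.18 in vehicle and by 1.13 ± 0.19 (SE, adjusted p = 0.000823); Zfp429 by −0.48 ± 0.18 and 1.15 ± 0.19 (SE, adjusted p = 0.000687). Zfp566 was the 1 member that rose in vehicle, by 1.08 ± 0.24, and fell with CsA, by −1.39 ± 0.29 (SE, adjusted p = 0.00282).

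**Figure D4:**
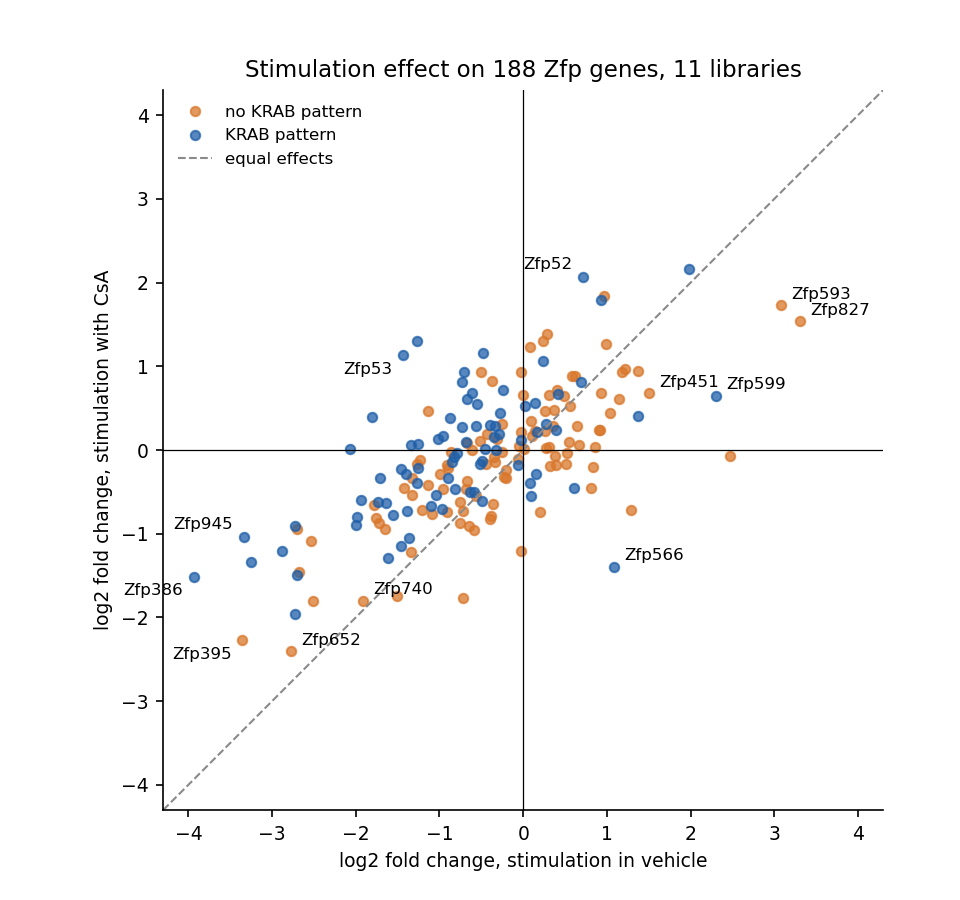
Log2 fold change of stimulation with CsA (vertical axis) against that in vehicle (horizontal axis) for the 188 members, 11 libraries; blue points have the KRAB pattern, orange points do not, and the dashed line marks equal effects. Zfp652 and Zfp740 lie near the line, Zfp386 and Zfp945 far to its upper left side, Zfp53 is lower with vehicle and higher with CsA, and Zfp566 is the reverse.

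The difference between the 2 stimulation effects was tested as an interaction. With 12 libraries 25 members had a more positive effect with CsA and 7 a more negative one, against 9.72% of all genes called, 3.54% more positive and 6.19% more negative, or 4.84% and 9.04% of those with a mean of at least 5 CPM. Of the 25, 20 had the KRAB pattern, as did 2 of the 7; without CsA_PI 2 the counts were 30 and 8, with 22 and 1, beside 5.08% and 7.31% of all genes. Library totals gave 39 and 0. The 32 calls became 10 without ethanol_US 1, 19 without ethanol_US 2, 17 without CsA_US 2, 14 without CsA_US 3, and 13, 20 and 16 without ethanol_PI 1, 2 and 3. Zfp386 had the largest positive value, 3.06 ± 0.58 (SE, adjusted p = 0.00658), then Zfp945 with 2.90 ± 0.61 (SE, adjusted p = 0.0102) and Zfp85 with 2.39 ± 0.58 (SE, adjusted p = 0.0223). Zfp53 had 2.29 ± 0.36 (SE, adjusted p = 0.00207). The most negative were Zfp566 with −2.07 ± 0.45 (SE, adjusted p = 0.0126), Zfp703 with −1.96 ± 0.49 (SE, adjusted p = 0.0256) and Zfp599 with −1.77 ± 0.47 (SE, adjusted p = 0.0334); none of these 3 was called with library totals (adjusted p = 0.0652 to 0.0718), and in the 11 libraries Zfp599 had an adjusted p of 0.0508. Without ethanol_US 1, Zfp85, Zfp566, Zfp599 and Zfp703 were no longer called (0.0524 to 0.106), while Zfp386, Zfp945 and Zfp53 were called without any 1 library. For Zfp652 the interaction was 0.37 ± 0.49 (SE, adjusted p = 0.715) in the 11 libraries.

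In unstimulated cells no member was called for CsA, against 0.00695% of all genes (1 gene). At an unadjusted p under 0.05 there were 8 members, beside 465 of all 14398 genes, and DESeq2 called none. The median difference was −0.13 over the members, with 130 of 188 below 0, and −0.22 over those with the KRAB pattern, beside −0.01 over all genes, with 7453 of 14398 below 0. Zfp266, the member with the lowest log2 difference, stood at 30.1, 36.6 and 28.5 CPM with vehicle and at 24.7, 15 and 17.4 CPM with CsA. That difference was −0.73 ± 0.21 (SE, adjusted p = 1) and was not called. Mean log2 levels of the members with the KRAB pattern were 4.18, 4.11 and 4.15 in the vehicle libraries and 4.07, 3.78 and 3.96 in the CsA libraries, the lowest being CsA_US 2.

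The members lie on 20 chromosomes, with 43 on chromosome 7 and 24 on chromosome 17 (GENCODE M21 on mm10). Of the 24 on chromosome 17, 20 had the KRAB pattern; 13 fell with stimulation in vehicle and 1 rose (14 and 3 in the 11 libraries). Beside these and the next counts stand the 25.0% falling and 26.7% rising of all genes averaging at least 5 CPM. For CsA in stimulated cells 13.6% of those genes were higher and 17.9% lower. In the 11 libraries 22.9% of all genes tested fell and 20.8% rose with stimulation, and 10.4% were higher with CsA. Members with the KRAB pattern, which fell more often, make up most of several runs. Runs of at least 5 members no more than 500 kb apart numbered 6. The longest, 13 members at chr17:21008903-22867134, 12 of them with the KRAB pattern, had 10 falls and no rise with stimulation (median −1.08), and 8 were higher with CsA; the 11 libraries gave 10 falls and 2 rises. It holds Zfp53, Zfp52, Zfp54 and Zfp945, so that neighbours differed: Zfp53 and Zfp52 are consecutive members along it, and their log2 changes in vehicle were −1.44 ± 0.18 and 0.72 ± 0.15 in the 11 libraries. A run of 9 KRAB genes at chr13:67312998-67755228 had 2 falls and 5 higher with CsA, or 4 and 4 in the 11 libraries. A run of 10 at chr7:29768552-30169750 had 4 falls, Zfp260 among them, and 3 rises, Zfp566 and Zfp568 among them. Of 6 members at chr6:47835661-48086593 none was called with stimulation in 12 libraries, and 2 fell in the 11. Genes of such runs are known to arise by duplication and can share sequence, so counts along a run are not independent; 159 of the members had at least 80% of their 31-base stretches in no other gene, and of these 57 fell and 24 rose.

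Positions and identifiers of the members described most are as follows, on mm10. Among those that fell are Zfp386 (ENSMUSG00000042063; chr12:116047724-116063360), Zfp945 (ENSMUSG00000059142; chr17:22846697-22867134) and Zfp69 (ENSMUSG00000064141; chr4:120930137-120951699). Others are Zfp260 (ENSMUSG00000049421; chr7:30094777-30107622), Zfp652 (ENSMUSG00000075595; chr11:95712673-95835115) and Zfp53 (ENSMUSG00000057409; chr17:21488998-21510473). Those that rose are Zfp827 (ENSMUSG00000071064; chr8:79028437-79193766), Zfp593 (ENSMUSG00000028840; chr4:134243289-134245592), Zfp451 (ENSMUSG00000042197; chr1:33761545-33814595) and Zfp599 (ENSMUSG00000062794; chr9:22247430-22259895), and with CsA Zfp52 (ENSMUSG00000051341; chr17:21535539-21562601) and Zfp281 (ENSMUSG00000041483; chr1:136624901-136630053).

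Promoters were searched as the 250 bases before each RefSeq start (GRCm38.p6), found for 156 of the 188 members, on both strands. A gene was counted where any of its starts held the motif. The comparison set was all 27025 genes with a promoter, not chosen by level or by gene type as the members were. A share over expressed protein-coding genes alone was not counted. The ETS site CCGGAAG was present in 17.9% of the members (28 of 156), in 22.6% of those that fell (12 of 53) and in 25% of those that rose (5 of 20), beside 7.83% of all 27025 genes with a promoter. The NFAT core TGGAAA was present in 19.2% of the members and in 20.9% of all genes, with 13.2% of those that fell and 30% of those that rose. The AP-1 site TGANTCA was present in 4.49% of members and 7.82% of all genes, the E-box CACGTG in 7.69% and 6.86%, and the NRF1 motif TGCGCATG in 3.21% and 2.05%. The ETS and NFAT motifs share the letters GGAA and differ in the base before them, and a match is a description of the letters alone. Zfp386, the deepest fall, held the NFAT core and no ETS site. The promoters of 4 members that moved far are given 5′ to 3′ on the gene's strand, with ETS matches in capitals for Zfp945 and Zfp69, which fell, and NFAT matches in capitals for Zfp386, which fell, and Zfp827, which rose. They lie at chr12:116047474-116047723 (plus strand), chr17:22867135-22867384 (minus), chr4:120951702-120951951 (minus) and chr8:79028187-79028436 (plus).
Zfp386: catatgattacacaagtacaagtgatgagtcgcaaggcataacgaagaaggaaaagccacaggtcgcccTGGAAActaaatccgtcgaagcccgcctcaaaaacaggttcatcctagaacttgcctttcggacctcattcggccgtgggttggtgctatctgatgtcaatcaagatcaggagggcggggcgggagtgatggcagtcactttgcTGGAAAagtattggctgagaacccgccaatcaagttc
Zfp945: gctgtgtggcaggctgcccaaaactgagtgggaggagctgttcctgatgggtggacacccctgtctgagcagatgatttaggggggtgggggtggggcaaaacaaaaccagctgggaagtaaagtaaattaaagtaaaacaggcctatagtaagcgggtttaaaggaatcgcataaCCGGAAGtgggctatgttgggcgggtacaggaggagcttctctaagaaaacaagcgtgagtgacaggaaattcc
Zfp69: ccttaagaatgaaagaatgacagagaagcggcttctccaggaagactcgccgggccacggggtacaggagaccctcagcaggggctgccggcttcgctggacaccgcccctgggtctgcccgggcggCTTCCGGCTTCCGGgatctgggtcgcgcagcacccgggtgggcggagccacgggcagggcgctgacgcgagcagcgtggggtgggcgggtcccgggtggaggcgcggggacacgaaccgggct
Zfp827: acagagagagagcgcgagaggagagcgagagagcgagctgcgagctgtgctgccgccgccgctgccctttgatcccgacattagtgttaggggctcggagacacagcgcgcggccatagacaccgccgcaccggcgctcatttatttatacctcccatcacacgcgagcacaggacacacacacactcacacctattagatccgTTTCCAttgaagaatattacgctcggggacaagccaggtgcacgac
In Zfp69 the 2 ETS matches stand side by side on the opposite strand.

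Zinc finger genes outside the members were counted the same way, for stimulation in vehicle and for CsA in stimulated cells. Over all genes averaging 5 CPM or more, 26.7% rose and 25.0% fell, and 13.6% were higher and 17.9% lower with CsA. Of 117 tested Zfp genes under the threshold, 4 rose (3.42%) and 36 fell (30.8%), and 18 were higher and 1 lower with CsA. These 117 average under 5 CPM, so the shares just given are not a like comparison for them. Over all 14398 genes tested, at any level, 20.1% rose and 19.7% fell, and 10.3% were higher and 12.7% lower with CsA. A share over tested genes under 5 CPM alone was not counted. Of 19 other genes with the KRAB pattern and at least 3 fingers, 1 rose and 8 fell, and 4 were higher and none lower with CsA. Of 12 Zscan and Zkscan genes, whose proteins carry a SCAN dimerization domain, none rose and 6 fell, and 6 were higher and none lower with CsA. Of 31 Zbtb genes, which pair a BTB domain with fingers, 10 rose and 9 fell, near the shares of all genes, with 6 higher and 4 lower. Of 11 Klf genes 3 rose and 4 fell, with 1 higher and 3 lower, and of 138 other genes with at least 3 fingers 35 rose and 40 fell, with 21 higher and 19 lower. For CsA the 11 libraries gave 4 higher and 7 lower Zbtb genes, 1 and 5 Klf genes, and 27 and 24 of the 138. For the Zscan and Zkscan genes they gave 7 and 0, for the other KRAB genes 5 and 0, and for the Zfp genes under the threshold 16 and 1.

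Of 18 genes of the machinery that KRAB proteins recruit, 6 rose and 4 fell with stimulation in vehicle, and 1 was higher and 4 lower with CsA. In the 11 libraries 5 rose and 5 fell, and none was higher and 3 lower. The counts for stimulation lie near the 26.7% rising and 25.0% falling of all genes averaging 5 CPM or more. For CsA 13.6% of those genes were higher and 17.9% lower with 12 libraries. Trim28, the corepressor that binds the box, went from a mean of 105 to 189 CPM (log2 fold change 0.84; adjusted p = 0.0415), a call lost in the 11 libraries (adjusted p = 0.0623). Morc2a, a chromatin ATPase of the silencing complex, went from 34.9 to 120.3 CPM (1.78; adjusted p = 2.00e-05). Setdb1, a histone H3 methyltransferase, went from 73.0 to 44.8 CPM (−0.70; adjusted p = 0.0192), and Cbx3, a heterochromatin protein, from 206 to 47.6 CPM (−2.11; adjusted p = 0.000813).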

How the data were processed

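RNA of total splenic CD4+ T cells was sequenced in 12 libraries (SMART-seq, per the labels' protocols). Per the submitters' processing notes the authors used cutadapt and kallisto with the build mm10; versions, annotation and strandedness are not given in the sources used here. The deposited tables hold, per the file headers, each transcript's estimated count, not scaled for depth, its TPM, and its length and effective length. Here 108214 of 109617 transcripts were matched by identifier to GENCODE M21; the 1403 others carried 0.494% to 0.628% of the counts and were left out. Estimated counts were summed per gene and rounded, and kallisto splits reads that fit several transcripts, so genes with shared sequence are uncertain.

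Tests used edgeR 4.0.16 in R 4.3.3 (TMM; expression filter with minimum count 10 and minimum total 15; robust quasi-likelihood) with the 4 groups in 1 fit over all 14398 genes that passed, all 188 members among them. Calls required a p below 0.05 after Benjamini-Hochberg adjustment over all genes tested. Standard errors are the absolute log2 fold change over the square root of F. The scripts were tested on simulated data. Listed CPM are TMM-scaled, the level rule and marker sums use unscaled CPM, and mean log2 levels add 0.5 CPM.

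Members and lists were chosen with earlier results of these data known, and counts over them are descriptions. The 56 named members are 29 with known roles, up to 8 largest called rises and falls per comparison without overlap of the groups (3 each for the interaction), the 3 highest and 3 lowest by TPM, and those at the threshold. The pattern counts were planned on RefSeq proteins and were made on translated GENCODE M21 coding sequences instead; a second, shorter KRAB pattern was added after the data were seen.

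The replicate numbers of the labels, which do not say what they share, were examined through libraries with the same number: each library's deviation from its group mean was correlated with that of its partner across genes. For vehicle the 3 correlations lay within 0.184 to 0.384, for stimulated cells within 0.129 to 0.230, for unstimulated cells within 0.246 to 0.371 and for CsA within 0.011 to 0.138, so the numbers were taken as pairs except in the last. The reported values come from fits without a block.

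Alternatives were other scalings and filters, DESeq2 1.42.0, a replicate block, only the groups compared, other member rules and leaving out each library. The fit without CsA_PI 2 was planned since that library was known to stand apart.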

Additional observations from a re-analysis of the deposited data

Results flagged for a closer look

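For 20 members described above, the effect of stimulation with CsA differed from that in vehicle by the interaction test (edgeR, Benjamini-Hochberg adjusted p under 0.05, 12 libraries). The values are the log2 effect with CsA minus the log2 effect in vehicle. Among members with the KRAB pattern it was more positive by 3.06 for Zfp386, 2.90 for Zfp945, 2.39 for Zfp85, 2.35 for Zfp69, 2.29 for Zfp53, 2.26 for Zfp54, 1.91 for Zfp90, 1.51 for Zfp266, 1.34 for Zfp429 and 1.19 for Zfp110. It was more negative for Zfp566 (−2.07) and Zfp599 (−1.77), which are also KRAB genes. Among members without the pattern it was more positive by 2.02 for Zfp260, 1.24 for Zfp143 and 1.08 for Zfp292. It was more negative for Zfp703 (−1.96), Zfp654 (−1.22), Zfp451 (−0.996), Zfp131 (−0.95) and Zfp622 (−0.89). Of the 20, the call held without any 1 of the 12 libraries for Zfp53, Zfp69, Zfp110, Zfp266, Zfp386 and Zfp945. The others, Zfp429 among them, lost it without at least 1 library, with adjusted p up to 0.142. For Zfp429 these values were 0.0582 to 0.106, and its call was also lost with the replicate block (edgeR, adjusted p = 0.0517). With library totals in place of TMM, all 7 of the more negative calls were lost (edgeR, adjusted p = 0.0652 to 0.181).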

How the results depend on the processing

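Over the described members and comparisons, other settings left 2359 values with the same direction and side of the threshold, brought 148 past it, took 88 below it and turned 1: the change of Zfp592 with stimulation in vehicle, −0.0354 (edgeR, adjusted p = 0.908) with library totals in place of TMM. Leaving out 1 library kept 3169, brought 58 past the threshold and took 313 below it. The number of members called with stimulation in vehicle was 93 (71 to 110 without 1 library), for CsA in stimulated cells 73 (40 to 69), for stimulation with CsA 9 (0 to 56) and for the interaction 32 (10 to 40); CsA in unstimulated cells gave 0 under each setting run. Members whose lowest group mean was at least 5 CPM had 56, 42 and 19 calls for stimulation in vehicle, CsA in stimulated cells and the interaction, since fewer genes are counted. The calls of stimulation with CsA numbered 0 with library totals, 0 from the 2 groups alone, 3 with no filter, 16 with only genes of at least 5 CPM tested and 26 with DESeq2; without CsA_PI 2, DESeq2 gave 61 and the replicate block 62. For the interaction DESeq2 gave 49, and 50 without CsA_PI 2. Why these counts moved was not tested. Without CsA_PI 2 that group holds 2 libraries, and members near 1 CPM after stimulation rest on few counts, so their folds are imprecise.

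With the replicate number as a block, 98 members were called for stimulation in vehicle, 74 for CsA after stimulation, 0 for CsA alone, 6 for stimulation with CsA and 35 for the interaction. The block moved none of these counts by over 1.5 times, but the calls differ: for stimulation with CsA it ended those of Zfp110, Zfp266, Zfp281, Zfp384 and Zfp507 (edgeR, adjusted p = 0.0520 to 0.0608) and added Zfp53. Among the described members it also added Zfp217 and Zfp326 for stimulation in vehicle, Zfp568 and Zfp687 for CsA after stimulation and Zfp827 for the interaction, ended Zfp592 and Zfp410 for CsA after stimulation and Zfp429 for the interaction, and changed no other call. Between the CsA groups, where the numbers were not taken as pairs, each stimulated library still correlated best with the unstimulated one of its own number, a hint from the data and not the design. The block without CsA_PI 2, DESeq2 without it, the count over all Zfp genes tested and the second KRAB pattern were added after seeing the data.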
